A study of Mus musculus with 12 samples.

Results

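The glycolysis and hypoxia-inducible genes are a named list of 35 genes. They comprise enzymes of glycolysis, transporters of glucose and lactate, regulators of glycolytic flux, the oxygen-sensing pathway, and other genes induced when oxygen falls. The list was fixed by name, but with earlier results of these data known, so shares of members beside those of all genes are descriptions only. Every probe of these genes with a detection p-value under 0.05 on at least 2 of 12 arrays was taken. Of the 35 genes, 31 had a named probe and 30 passed this filter, out of 10144 genes tested in all. Gpi1, Eno1, Ankrd37 and Ero1a were not analysed here, and Bnip3, detected on 1 array, did not pass.

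Transcript levels were read on 12 bead arrays of a single colour, 2 for each of 6 groups, and the cells of all groups carried the same label of mixed C57BL/6, CD1 and C3H strain. Peripheral neural stem cells (pNSCs) grow in culture from tissue outside the central nervous system and resemble those of the brain. A first line came from the embryonic limb (elpNSCs) and the other from the adult lung (alpNSCs). Each was sampled early and late in culture, giving the groups elpNSCs-early, elpNSCs-late, alpNSCs-early and alpNSCs-late, and the references were brain neural stem cells (Control-NSC) and Fibroblasts. How many passages early and late stand for, the labels do not say. They name no low-pH treatment either, but the study describes arrays of limb and lung lines first derived after exposure to low pH, so the pNSC groups may carry it. The methods describe lines picked as single clusters, so a line may be 1 clone. Neural stem cells were grown with the growth factors EGF and bFGF and Fibroblasts in medium with serum, and the oxygen level is not given in the sources used here. The methods call the arrays of a group biological replicates without saying whether cultures, animals or lines differed, so the p-values reflect only the spread between these arrays.

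Glycolysis splits glucose into pyruvate in the cytoplasm, and lactate dehydrogenase turns pyruvate into lactate so that the pathway can run without mitochondrial oxidation. When oxygen is scarce, prolyl hydroxylases of the Egln family stop marking HIF-1α, the product of Hif1a, for destruction, and HIF then raises transcription of glycolytic and other target genes. Cultured neural stem cells are known for high glycolysis.

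Each array detected 11801 to 12836 of its 25697 probes, with median raw intensities of 98.1 to 115.7, and replicate arrays correlated at r = 0.99 to 0.996. All 7 neural stem cell markers were detected in each of the 5 neural stem cell groups. In Fibroblasts 3 of the 7 were detected, with Sox2, Olig2, Fabp7 and Bcan not above background. The 7 fibroblast markers were all detected in Fibroblasts, with a summed intensity of 30800 to 32100. None of the 7 was above background in elpNSCs-late, alpNSCs-early or alpNSCs-late (143 to 151), whereas 2 of 7, Bgn and Thy1, were in elpNSCs-early (251 to 258) and 1 of 7, Thy1, in Control-NSC (653 to 703). In bulk samples, fewer cells of a type and less RNA per cell cannot be told apart.

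Levels below are normalized log2 intensities, and a gene was called changed at an adjusted p under 0.05 over all genes tested. The elpNSCs-late group stood out among the neural stem cells: its mean was the highest of the 5 neural stem cell groups for 24 of 30 members (80%), against 22.5% of all genes tested. The 24 include Car9, not above background in any of the 5 groups, and Slc16a3, whose 5 group means spanned only 0.066 log2 units. For these genes the order of the groups carries little meaning. The alpNSCs-early group was the lowest for 15 of the 30, against 15% of all genes. It was the highest for 0 members (15.9% of all genes), alpNSCs-late for 1 (15.2%), elpNSCs-early for 2 (25.8%) and Control-NSC for 3 (20.7%).

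In the limb line, 6 of 11 glycolytic enzymes and 5 of 11 other hypoxia targets rose late against early, and none of either role fell. Of the 30 members, 14 rose and 1 fell, whereas 11.7% of all genes rose and 12.1% fell. The median difference over the members was 0.45 on the log2 scale, against 0 over all genes. The largest rises were those of Ndrg1, Ppp1r3c and Hk2, and the gene that fell was Pfkfb4. In the other roles, 1 of 2 transporters and 1 of 3 oxygen-sensing genes rose, and of 3 flux regulators 1 rose and 1 fell.

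Ndrg1, a stress-responsive gene induced by low oxygen, had levels of 4.49 and 4.53 in elpNSCs-early, not above background, and 6.59 and 7.49 in elpNSCs-late. Both late arrays lay above both early arrays, and the late mean was at least 5.09-fold higher (adjusted p = 3.4e-05). Its second kept probe gave a rise of 2.07 ± 0.32 (log2 difference ± SE). Ppp1r3c, which encodes a subunit that directs a protein phosphatase to glycogen, rose from 9.45 and 9.33 to 11.34 and 11.86, a difference of 2.21 ± 0.15 or 4.62-fold (adjusted p = 1.9e-06). All 4 limb arrays detected it, and the groups did not overlap. Ddit4, an inhibitor of mTOR signalling, rose from 8.37 and 8.15 to 9.66 and 9.71 (1.43 ± 0.12, adjusted p = 8.1e-06). Its late arrays differed by 0.05, and again the groups did not overlap.

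Among the glycolytic enzymes Hk2 and Pfkl had the largest differences. Hk2, the hexokinase that traps glucose in the cell, was at 7.67 and 7.27 early and at 9.18 and 9.94 late, a 4.26-fold difference (2.09 ± 0.21, adjusted p = 3.4e-05). Pfkl, the liver-type phosphofructokinase, went from 8.78 and 9.11 to 10.31 and 10.92 (1.67 ± 0.19, adjusted p = 8.3e-05). A second, dim Pfkl probe gave 0.06 ± 0.17 and was not called, so its probes disagree. Pgam1 (0.79), Ldha (0.62), Tpi1 (0.53) and Pfkp (0.44) rose by smaller log2 differences. Of their kept probes, 2 of 3 were called for Tpi1 and 1 of 2 for Pfkp. The other 5 enzymes with a tested probe lay between -0.28 (Pkm) and 0.23 (Aldoa) and were not called, Gapdh at 0.08, Hk1 at -0.15 and Pgk1 at 0.14 among them. Gapdh ranged over 0.63 log2 units and Aldoa over 0.46 across all 12 arrays, whereas Hk2 ranged over 2.67. Pgk1 was read by 1 dim probe, at the 28.1th percentile of levels.

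Members that steer glucose carbon moved in both directions. Pdk1, a kinase that holds back the oxidation of pyruvate in the mitochondria, rose from 5.82 and 5.81 to 7.13 and 8.24 (1.87 ± 0.28, adjusted p = 0.00044). Slc2a1, the main glucose importer, rose from 9.04 and 8.73 to 9.46 and 10.54 (1.12 ± 0.26, adjusted p = 0.0079). For both genes the replicate 2 array of elpNSCs-late was the higher by more than 1 log2 unit. Pfkfb4, which sets the level of an activator of phosphofructokinase, was instead at 5.48 and 5.57 early and not above background late (4.33 and 4.33), at least 1.75-fold lower (adjusted p = 4.5e-05). Its relative Pfkfb3 was at 0.26 and the lactate exporter Slc16a3 at 0.07, neither called.

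Within oxygen sensing, Egln3 rose from 7.78 and 7.66 to 9.07 and 9.37 (1.498 ± 0.16, adjusted p = 3.7e-05). Egln3 is a HIF hydroxylase that is itself a HIF target. Egln1 (0.26) and Hif1a (0.01) were not called, and the 2 arrays of a group differed for Hif1a by up to 0.95 log2 units. Vegfa, an angiogenic growth factor, was at 8.65 and 8.30 early and 9.09 and 10.66 late (1.40 ± 0.37, adjusted p = 0.016). Bnip3l, a receptor for the removal of mitochondria, rose by 0.56 ± 0.15. The 6 other hypoxia targets not called in this comparison were P4ha2, Kdm3a, P4ha1, Mxi1, Car9 and Adm, with differences from 0.65 for P4ha2 to -0.42 for Adm.

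The replicate 2 array of elpNSCs-late was the higher of the pair for 13 of the 14 members that rose, by a median of 0.50 log2 units, and for 25 of all 30. Both late arrays were nevertheless above the early mean for all 14. Without that array 10 members were called. Vegfa (adjusted p = 0.086), Ldha, Tpi1, Pgam1, Pfkp and Bnip3l were no longer called and Pfkfb3 (0.50) became so, while Ndrg1 (fitted difference 2.08), Ppp1r3c (1.95), Hk2 (1.71), Ddit4 (1.40), Pfkl (1.37), Egln3 (1.35), Pdk1 (1.32), Slc2a1 (0.57) and Pfkfb4 stayed called. Without elpNSCs-early replicate 2, Vegfa, Bnip3l and Pfkp lost their calls, without elpNSCs-early replicate 1 Pgam1 and Pfkp did, and without elpNSCs-late replicate 1 Pfkp did. Of 5 astrocyte markers tested, 4 fell late, with a summed intensity of 3450 to 4140 in elpNSCs-early and 2520 to 3030 in elpNSCs-late and Gfap not above background, and the part of cell composition in the result was not tested.

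**Figure D1:**
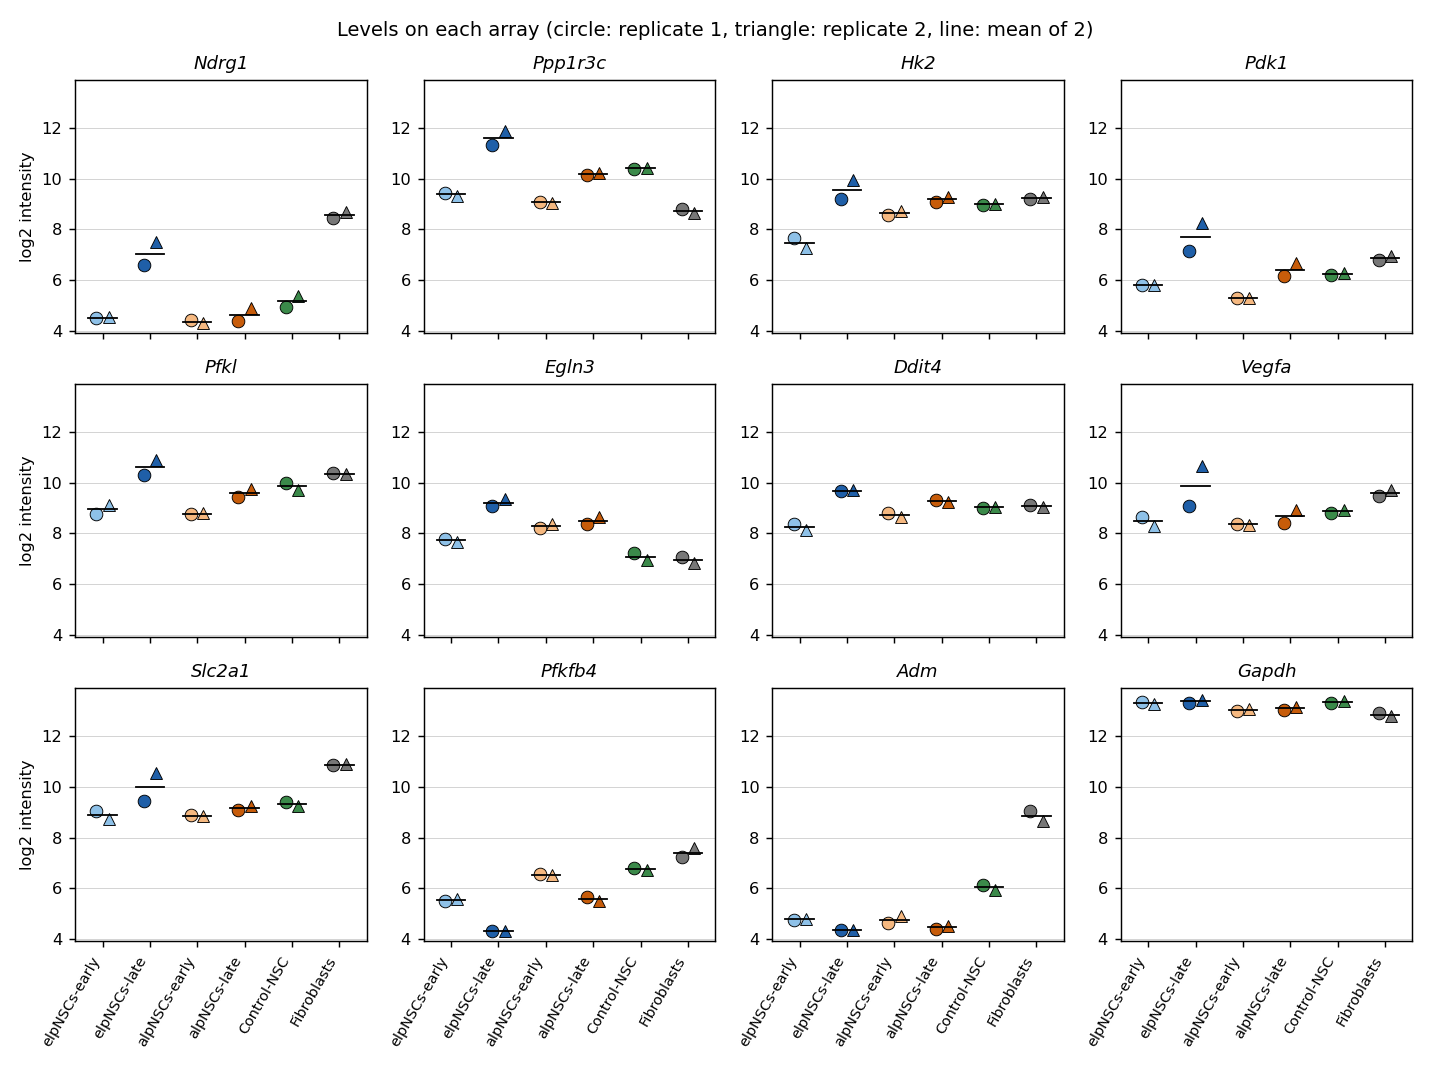
Normalized log2 intensity (vertical axis) of 12 members in the 6 groups (horizontal axis), with a circle for replicate 1, a triangle for replicate 2 and a line at the mean of 2. Ndrg1, Ppp1r3c, Hk2 and Pdk1 are higher on both elpNSCs-late arrays than on both elpNSCs-early arrays, Pfkfb4 is lower, and Gapdh lies between 12.81 and 13.45 on all 12 arrays.

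In the lung line fewer members changed. Of the 30, 4 rose and 1 fell, against 2.11% and 2.72% of all genes, and the members' median was 0.13 against 0 over all genes. Ppp1r3c rose from 9.09 and 9.05 to 10.14 and 10.23 (1.12 ± 0.15, 2.17-fold, adjusted p = 0.00089). Ddit4 rose from 8.80 and 8.63 to 9.32 and 9.24 (0.57 ± 0.12, adjusted p = 0.016). Pfkfb4 fell here too, from 6.55 and 6.53 to 5.64 and 5.5, by 0.97 ± 0.13 (adjusted p = 0.0006).

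Pdk1 was at 5.28 and 5.29 in alpNSCs-early and at 6.14 and 6.68 in alpNSCs-late (1.13 ± 0.28, adjusted p = 0.037), and Pfkl at 8.76 and 8.79 against 9.45 and 9.75 (0.83 ± 0.19, adjusted p = 0.029). The second Pfkl probe gave -0.07 ± 0.17, and the mean over both probes 0.38 (adjusted p = 0.25). For Pdk1 and the brighter Pfkl probe the late arrays lay above the early arrays, but the calls were less steady than those of Ppp1r3c and Pfkfb4. Pdk1 and Pfkl each lost their call when any of the 4 lung arrays or either Fibroblasts array was left out, Pdk1 also without either Control-NSC array, while Ddit4 lost it without alpNSCs-early replicate 2 or either alpNSCs-late array. Without alpNSCs-early replicate 1 there were 3 calls, without either Fibroblasts array 3, and without any other of the lung arrays 2, Ppp1r3c and Pfkfb4 being called each time. Ndrg1 was at 4.40 and 4.30 early, not above background, and at 4.37 and 4.88 late, detected on 1 array (adjusted p = 0.71). Hk2 (0.53 ± 0.21) and Ldha (0.41 ± 0.14) did not pass the threshold. Of 5 oligodendrocyte markers tested, Bcas1 rose (1.62) and Ugt8a fell, with a median of -0.14. Their summed intensity was 1390 to 1560 early and 3400 to 3670 late, and Mbp, Mog and Mag were not above background in either group. Of 5 astrocyte markers, Aldh1l1 and Gja1 fell, with sums of 2070 to 2080 early and 932 to 957 late and Gfap not above background. The part of these markers in the result was not tested.

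By role, 1 of 11 glycolytic enzymes and 2 of 11 other hypoxia targets rose in the lung line, where 2.11% of all genes rose. Their medians were 0.09 and 0.22. The corresponding medians in the limb line were 0.44 for the enzymes and 0.56 for the other targets. In both lines the median of the other targets was the higher, but whether the roles differ was not tested. The other targets include Car9, not above background in either line, and Adm, not above background in either late group. Gapdh, Pkm and Aldoa were called in neither line.

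**Figure D2:**
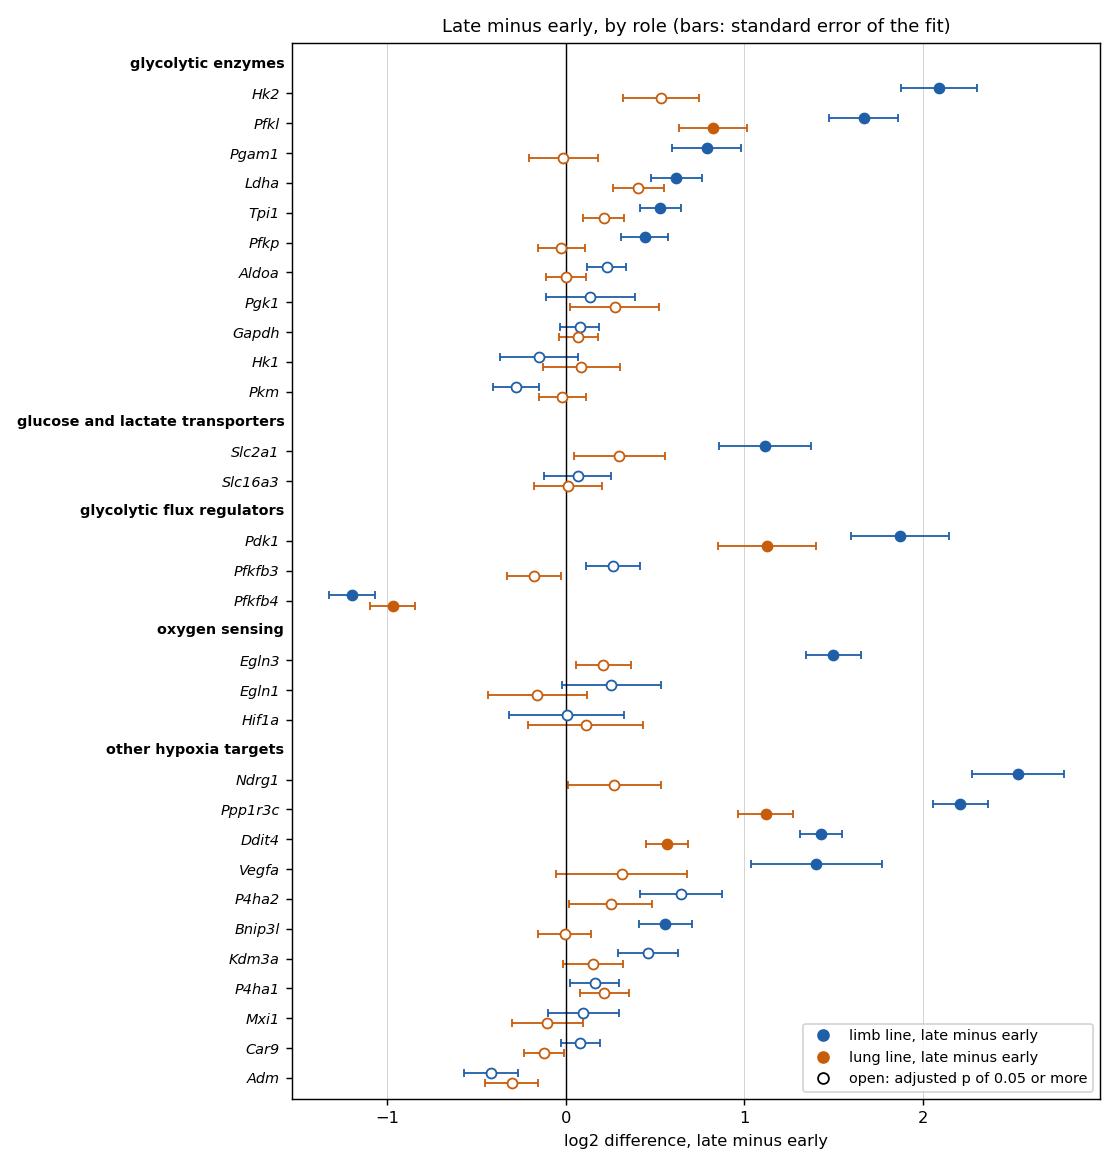
Log2 difference, late minus early (horizontal axis), of the 30 tested members grouped by role, for the limb line in blue and the lung line in orange, with bars for the standard error and filled points for adjusted p under 0.05. Points of genes at background in a group are fitted values and not bounds. The limb points reach 2.53 for Ndrg1, the lung points reach 1.13 for Pdk1, and Pfkfb4 lies below 0 in both lines.

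The late-early change itself was smaller in the lung than in the limb line for 5 of 30 members and larger for 0, whereas 2.47% of all genes were called smaller and 3.18% larger. The 5 were Ndrg1 (-2.26 ± 0.37, adjusted p = 0.0035), Hk2 (-1.56 ± 0.30, adjusted p = 0.01), Egln3 (-1.29 ± 0.22, adjusted p = 0.0048), Ppp1r3c (-1.09 ± 0.22, adjusted p = 0.012) and Ddit4 (-0.86 ± 0.17, adjusted p = 0.011). Of these, 1 is a glycolytic enzyme, 1 an oxygen-sensing gene and 3 are other hypoxia targets. The Ndrg1 value takes in early levels at background in both lines, so its size is not exact. It ran from -3.204 to -0.962 over the alternatives, and 1 of the 2 kept Ndrg1 probes was called. With the deposited normalized values Ndrg1 (adjusted p = 0.06) and Ppp1r3c (adjusted p = 0.053) were not called. The medians were -0.23 for the enzymes, -0.40 for the other targets and 0 over all genes.

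The same 5 were called without elpNSCs-late replicate 2, with Ndrg1 at -1.81 and Ppp1r3c at -0.83. Without elpNSCs-late replicate 1 there were 11, with Pdk1, Pfkl, Slc2a1, Vegfa, P4ha2 and Bnip3l added. Without alpNSCs-late replicate 1 (Hk2 and Ppp1r3c lost) or alpNSCs-early replicate 1 (Ddit4 and Ppp1r3c lost) there were 3, and without alpNSCs-late replicate 2 Ddit4 was lost. The differences of Pdk1 (-0.75 ± 0.39), Pfkl (-0.84 ± 0.27) and Pfkfb4 (0.23 ± 0.18) did not pass the threshold, so these 3 genes, called in both lines, are not shown to change by different amounts.

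The core letters of the hypoxia response element, to which HIF binds, are ACGTG or GCGTG. RefSeq promoter windows of build GRCm38.p6, from 250 bases before to 50 after each gene start, were searched for both on either strand. Windows were matched for 28 of the 30 tested members, all but Ndrg1 and Bnip3l. ACGTG stood in a window of 21 of the 28 (75%), against 21.8% of the 27025 genes of the table, and GCGTG in 18 (64.3%) against 35.2%. Of the matched members that rose in the limb line, 8 of 12 held ACGTG, and of those not called there, 13 of 15. A match describes letters and is not a binding site, and base composition was not matched between members and the other genes.

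The bases upstream of the start are given for the 4 matched members whose late-early change differed between the lines, and for Pfkfb4, which fell in both. They run from 250 to 1 base before the start, 5′ to 3′ on the gene's strand, with the searched letters of either strand in capitals. The windows are chr19:36736605-36736854 for Ppp1r3c, chr6:82774455-82774704 for Hk2, chr12:54203875-54204124 for Egln3 and chr10:59951771-59952020 for Ddit4, all on the minus strand, and chr9:108991652-108991901 on the plus strand for Pfkfb4. Ppp1r3c held ACGTG at 3 positions, 2 of which overlap as CACGTG, Hk2 at 2, Egln3 at 1 and Ddit4 at 1. The Pfkfb4 stretch held GCGTG at 1 position and ACGTG at 0.
Ppp1r3c: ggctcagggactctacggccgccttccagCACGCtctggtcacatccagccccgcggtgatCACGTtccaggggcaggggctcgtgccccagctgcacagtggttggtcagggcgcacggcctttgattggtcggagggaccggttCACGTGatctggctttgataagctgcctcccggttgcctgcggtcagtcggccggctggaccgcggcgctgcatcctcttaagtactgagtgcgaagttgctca
Hk2: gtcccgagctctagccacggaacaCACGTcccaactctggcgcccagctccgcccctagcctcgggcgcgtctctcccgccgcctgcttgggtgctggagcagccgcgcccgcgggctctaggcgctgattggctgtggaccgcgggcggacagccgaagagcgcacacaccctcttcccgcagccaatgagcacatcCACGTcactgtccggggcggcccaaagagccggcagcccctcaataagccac
Egln3: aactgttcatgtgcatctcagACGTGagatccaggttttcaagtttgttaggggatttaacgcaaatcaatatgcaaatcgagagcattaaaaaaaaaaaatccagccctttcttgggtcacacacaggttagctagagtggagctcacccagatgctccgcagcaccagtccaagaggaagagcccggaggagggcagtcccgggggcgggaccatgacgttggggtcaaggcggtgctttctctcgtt
Ddit4: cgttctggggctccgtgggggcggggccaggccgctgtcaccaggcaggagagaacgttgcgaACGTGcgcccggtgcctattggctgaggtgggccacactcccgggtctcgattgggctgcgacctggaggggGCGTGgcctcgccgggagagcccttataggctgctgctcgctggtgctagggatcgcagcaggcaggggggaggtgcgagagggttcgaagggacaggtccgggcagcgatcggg
Pfkfb4: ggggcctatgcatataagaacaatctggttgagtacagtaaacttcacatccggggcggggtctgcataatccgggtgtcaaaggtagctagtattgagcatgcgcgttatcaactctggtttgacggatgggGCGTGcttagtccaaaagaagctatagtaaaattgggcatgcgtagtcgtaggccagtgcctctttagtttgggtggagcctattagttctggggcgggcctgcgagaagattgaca

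Further genes of the same pathways were counted from separate lists. Of 15 further glycolysis genes tested in the limb line, 3 rose and 12 were not called, where 11.7% of all genes rose: Slc2a3, a second glucose importer (1.49 ± 0.25), Aldoc, a brain aldolase (0.82 ± 0.14), and Eno3, an enolase (0.67 ± 0.16). Of 28 further HIF pathway genes, 10 rose and 1, Plod1, fell, against 11.7% and 12.1% of all genes. The largest rises were those of Ak4, a mitochondrial adenylate kinase (1.57 ± 0.19), Fam162a (1.31 ± 0.20) and Stc2, a secreted stanniocalcin (1.10 ± 0.15). The medians were 0.09 for the glycolysis list and 0.34 for the HIF list. In the lung line, where 2.11% of all genes rose and 2.72% fell, 0 of the 15 were called. Of the 28, 0 rose and 1 fell, namely Wsb1 (-0.65 ± 0.17). With so few genes called in all, these low counts say little about the lists. The rises of Aldoc, Ak4, Stc2 and Jmjd6 in the limb line were larger than their changes in the lung line by the test of the difference. That of Wsb1 was called too, with 0.40 in the limb line, not called, and a fall in the lung line.

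At the early stage the 2 lines differed in 5 members. In alpNSCs-early against elpNSCs-early, 4 members were higher and 1 lower, where 5.84% and 6.65% of all genes were. Hk2 was higher in the lung line, at 8.56 and 8.74 against 7.67 and 7.27 (1.18 ± 0.21, 2.27-fold, adjusted p = 0.0027). Pfkfb4 was higher by 1.01 ± 0.13 (adjusted p = 0.00016), Egln3 by 0.57 ± 0.16 and Ddit4 by 0.45 ± 0.12. P4ha1, a subunit of the enzyme that hydroxylates collagen, was lower (-0.48 ± 0.14, adjusted p = 0.039). Its call was lost with the deposited normalized values, and without any array but elpNSCs-early replicate 2 and those of elpNSCs-late. Ndrg1 was at background in both groups and Ppp1r3c differed by -0.32 ± 0.15 (adjusted p = 0.22). Without alpNSCs-early replicate 1 only Hk2 and Pfkfb4 were called. Without alpNSCs-early replicate 2, or without elpNSCs-early replicate 2, 3 were. Summed oligodendrocyte marker intensity was 3460 to 3580 in elpNSCs-early and 1390 to 1560 in alpNSCs-early (1 of 5 markers higher and 1 lower in the lung line), and astrocyte sums were 3450 to 4140 and 2070 to 2080 (1 of 5 higher and 3 lower). Their part in the result was not tested.

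At the late stage the limb line was the higher for most members that differed. Egln3 and Ddit4, called higher in the lung line early, were called lower there late, and Pfkfb4 was called higher in the lung line at both stages. The early calls of Egln3 (adjusted p = 0.031) and Ddit4 (adjusted p = 0.026) were lost with the deposited normalized values. Both were also lost when only the arrays compared were fitted. Early Egln3 lost its call without any of the arrays compared, and late Egln3 without elpNSCs-late replicate 2 or alpNSCs-late replicate 1. In alpNSCs-late against elpNSCs-late, 8 members were lower and 1 higher, against 5.61% and 5.29% of all genes, with a members' median of -0.42. Ndrg1 was lower by 2.42 ± 0.26 on the log2 scale (adjusted p = 4.1e-05), Ppp1r3c by 1.41 ± 0.15 (adjusted p = 4.8e-05), Pdk1 by 1.27 ± 0.28 and Pfkl by 1.01 ± 0.19. Egln3 (-0.72), Bnip3l (-0.71), Tpi1 (-0.50) and Ddit4 (-0.41) were also lower. Of the kept probes, 1 of 2 was called for Pfkl and 2 of 3 for Tpi1, and Tpi1 lost its call with the mean over its probes. Pfkfb4, not above background in elpNSCs-late, was at least 1.81-fold higher in alpNSCs-late (adjusted p = 2.8e-05). Hk2, at 9.07 and 9.29 in alpNSCs-late, differed by -0.38 from elpNSCs-late and did not pass the threshold. Without elpNSCs-late replicate 2 there were 5 calls, among them Ndrg1 and Ppp1r3c, without elpNSCs-late replicate 1 there were 15, and without alpNSCs-late replicate 1 there were 3, Ndrg1, Ppp1r3c and Pfkfb4. Ddit4 lost its call without any array but those of elpNSCs-early. Astrocyte sums were 2520 to 3030 in elpNSCs-late and 932 to 957 in alpNSCs-late (1 of 5 markers higher and 1 lower in the lung line), and oligodendrocyte sums 2770 to 3240 and 3400 to 3670 (0 higher and 2 lower), and their part was not tested. The early and late comparisons use different arrays, but each shares arrays with the late-early comparisons above.

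Against Control-NSC, both early lines were lower in Ppp1r3c and Adm and higher in Egln3. They were also lower by the brighter Pfkl probe, whereas the dim one gave 0.22 in elpNSCs-early and 0.20 in alpNSCs-early, not called, and the mean over both probes lost the calls (adjusted p = 0.13 and 0.072). All 4 comparisons share the 2 Control-NSC arrays, and tissue of origin, line and time in culture cannot be told apart in them. In elpNSCs-early, 2 members were higher and 6 lower, where 13.5% and 12.5% of all genes were. Hk2 (-1.51 ± 0.21), Adm (-1.26 ± 0.15), Pfkfb4 (-1.22 ± 0.13), Ppp1r3c (-1.02 ± 0.15), Pfkl (-0.92 ± 0.19) and Ddit4 (-0.77 ± 0.12) were lower. Hk1 (0.73 ± 0.22) and Egln3 (0.65 ± 0.16) were higher, and Ndrg1, at background in elpNSCs-early, was not called (adjusted p = 0.091), though called without either elpNSCs-late array. Hk1 lost its call without either Control-NSC array or elpNSCs-early replicate 2, and Egln3 without Control-NSC replicate 2.

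In alpNSCs-early, 1 member was higher and 7 lower, against 9.02% and 9.14% of all genes. Ppp1r3c (-1.34 ± 0.15), Adm (-1.27 ± 0.15), Pfkl (-1.09 ± 0.19), Pdk1 (-0.96 ± 0.28), Ldha (-0.57 ± 0.14) and Tpi1 (-0.37 ± 0.12) were lower, and Egln3 was higher (1.21 ± 0.16). Ndrg1, not above background in alpNSCs-early, was at least 1.34-fold lower, close to the threshold (adjusted p = 0.05 after rounding). With each probe fitted alone, 0 of its 2 kept probes were called, and the mean over both probes lost the call. Leaving out either alpNSCs-early array left 4 calls, leaving out Control-NSC replicate 1 left 4 and replicate 2 left 5, Pfkp being added. Ppp1r3c, Adm, Pfkl and Egln3 were called each time, and Ndrg1, Pdk1, Ldha and Tpi1 were not.

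In elpNSCs-late, 10 members were higher than in Control-NSC and 2 lower, against 7.52% and 7.79% of all genes, with a members' median of 0.51. Egln3, at 7.22 and 6.94 in Control-NSC, was 4.41-fold higher (2.14 ± 0.16, adjusted p = 9.6e-07). Ndrg1, at 4.93 and 5.38 in Control-NSC, was 3.69-fold higher (1.89 ± 0.26, adjusted p = 0.00027). Pdk1 (1.44 ± 0.28), Ppp1r3c (1.19 ± 0.15), Pfkl (0.75 ± 0.19) and Bnip3l (0.69 ± 0.15) were higher too, as were Ddit4, Kdm3a, a histone demethylase, Pgam1 and Pfkp. Of the kept probes, 1 of 2 was called for Pfkl and 1 of 2 for Pfkp. Pfkl lost its call with the deposited normalized values and when only the arrays compared were fitted. Pfkfb4 was at least 4.09-fold lower (adjusted p = 4.9e-08), and Adm, the precursor of the vasodilator peptide adrenomedullin, at least 2.49-fold lower (adjusted p = 6.7e-06). Without elpNSCs-late replicate 2 there were 8 calls, Pfkl, Bnip3l, Kdm3a and Pgam1 being lost, and without replicate 1 there were 18. Without a Control-NSC array there were 9, Kdm3a, Pfkp and Pgam1 being lost with replicate 1 and Bnip3l, Pfkl and Pgam1 with replicate 2.

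In alpNSCs-late, 1 member was higher and 2 lower than in Control-NSC, against 5.88% and 6.53% of all genes. Egln3 was higher by 1.43 ± 0.16 (adjusted p = 4.2e-05). Adm was at least 2.47-fold lower (adjusted p = 1.3e-05) and Pfkfb4 lower by 1.18 ± 0.13 (adjusted p = 3.9e-05). Ppp1r3c (-0.22 ± 0.15) and Ndrg1 (-0.53 ± 0.26) did not pass the threshold. Without either elpNSCs-late array, which enter only through the shared estimate of spread, 5 were called, with Hk1 and Pfkfb3 added. Egln3 was thus called higher, and Adm lower, in each of the 4 pNSC groups.

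**Figure D3:**
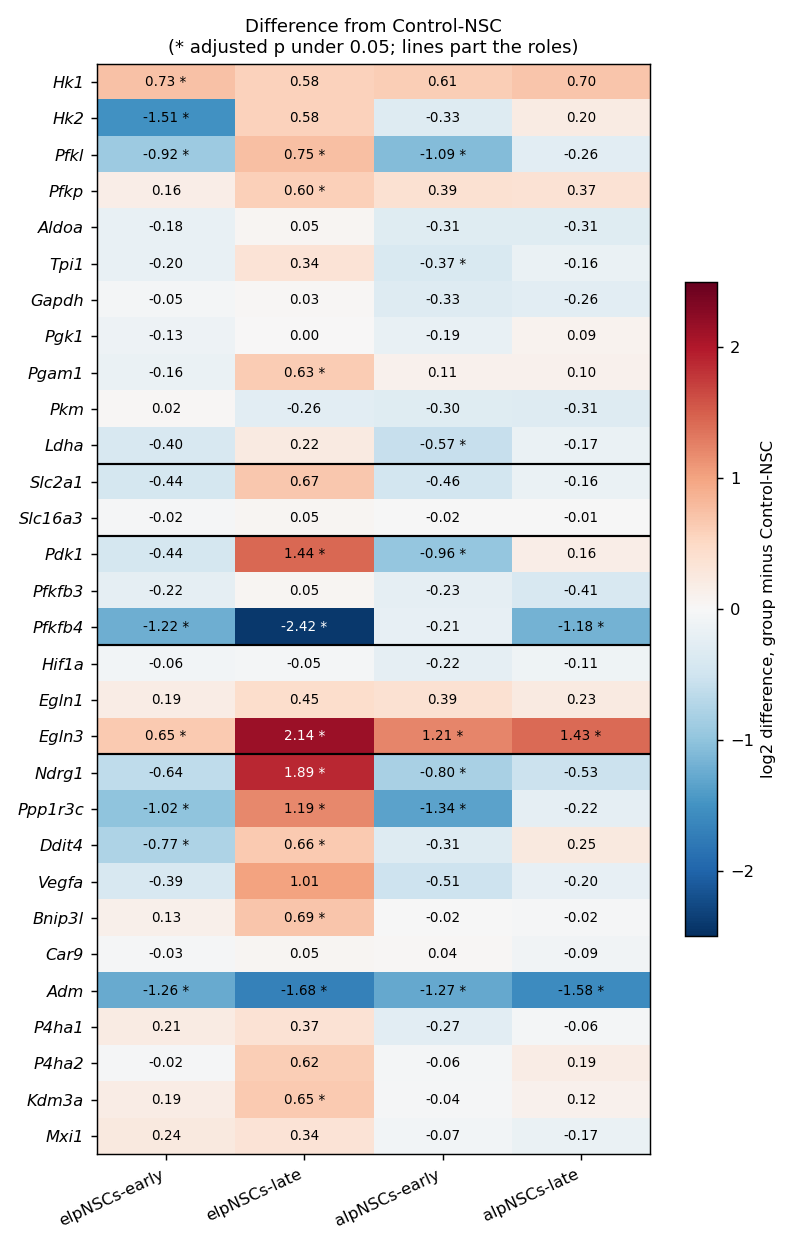
Log2 difference from Control-NSC of the 30 tested members (rows, lines parting the roles) in the 4 pNSC groups (columns), with red for higher, blue for lower and an asterisk for adjusted p under 0.05. Values of genes at background in a group are fitted and not bounds. The elpNSCs-late column holds the 10 members called higher, Egln3 at 2.14 and Ndrg1 at 1.89 leading, and Adm is lower in all 4 columns.

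P4ha2, Ndrg1 and Adm were far lower in neural stem cells than in Fibroblasts, whereas Ppp1r3c was higher and enzymes went both ways. Cell type and culture medium cannot be told apart here. In Control-NSC against Fibroblasts, 8 members were higher and 11 lower, where 34.7% and 27.2% of all genes were. The members' median was -0.16, against 0.11 over all genes. P4ha2, a second collagen hydroxylase subunit, was at 8.74 and 8.51 in Fibroblasts and not above background in Control-NSC, at least 14.6-fold lower there (adjusted p = 6.9e-09). Ndrg1, at 8.44 and 8.67 in Fibroblasts, differed by -3.399 ± 0.26 in Control-NSC (10.5-fold lower, adjusted p = 1.5e-07). Adm, at 9.06 and 8.64 in Fibroblasts and 6.13 and 5.94 in Control-NSC, was lower by 2.82 ± 0.15 (adjusted p = 4.9e-09).

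Pfkp (-2.44 ± 0.13), Slc2a1 (-1.56 ± 0.26) and P4ha1 (-1.35 ± 0.14) were lower in Control-NSC as well. Car9, a carbonic anhydrase, was detected on the 2 Fibroblasts arrays alone (5.87 and 5.84) and was at least 2.14-fold lower in Control-NSC (adjusted p = 1.3e-07). It passed the detection filter through those 2 arrays alone, so a lower level in Control-NSC followed from the filter and is no separate result. Car9 is among the members counted as lower, here and for the pNSC mean below. Ppp1r3c ran the other way, at 10.40 and 10.41 in Control-NSC and 8.82 and 8.66 in Fibroblasts (1.67 ± 0.15, 3.17-fold, adjusted p = 9.8e-07). Of the 11 enzymes, 4 were higher (Pkm, Gapdh, Ldha and Aldoa, by 0.32 to 0.85 on the log2 scale) and 3 lower, with a median of 0.17, whereas of the 11 other hypoxia targets 3 were higher and 6 lower, with a median of -0.72. Ldha lost its call without any of the 4 arrays compared, and Aldoa, Pfkl, Mxi1, Kdm3a and Bnip3l without some of them.

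The mean of the 4 pNSC groups against Fibroblasts had 7 members higher and 13 lower, against 39.6% and 28.2% of all genes, with a members' median of -0.14 against 0.13. Adm was at least 17.2-fold lower (adjusted p = 6e-12), P4ha2 at least 14.3-fold (adjusted p = 7.4e-10) and Ndrg1 at least 9.72-fold (adjusted p = 1.1e-08). For Ndrg1 this mean joins unlike groups, since elpNSCs-late was at 7.04 and the other 3 groups between 4.35 and 4.62, with Fibroblasts at 8.55. Pfkp (-2.06 ± 0.10), Pfkfb4 (at least 3.53-fold) and Slc2a1 (-1.65 ± 0.20) were lower. Egln3 (1.495 ± 0.12), Egln1 (1.41 ± 0.22) and Ppp1r3c (1.32 ± 0.12) were higher. For Hk2, Pfkl, Pdk1, Vegfa and Bnip3l the pNSC and Fibroblasts arrays overlapped although the mean was called. This mean and Control-NSC share the Fibroblasts arrays, so their values stand side by side and are not independent.

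**Figure D4:**
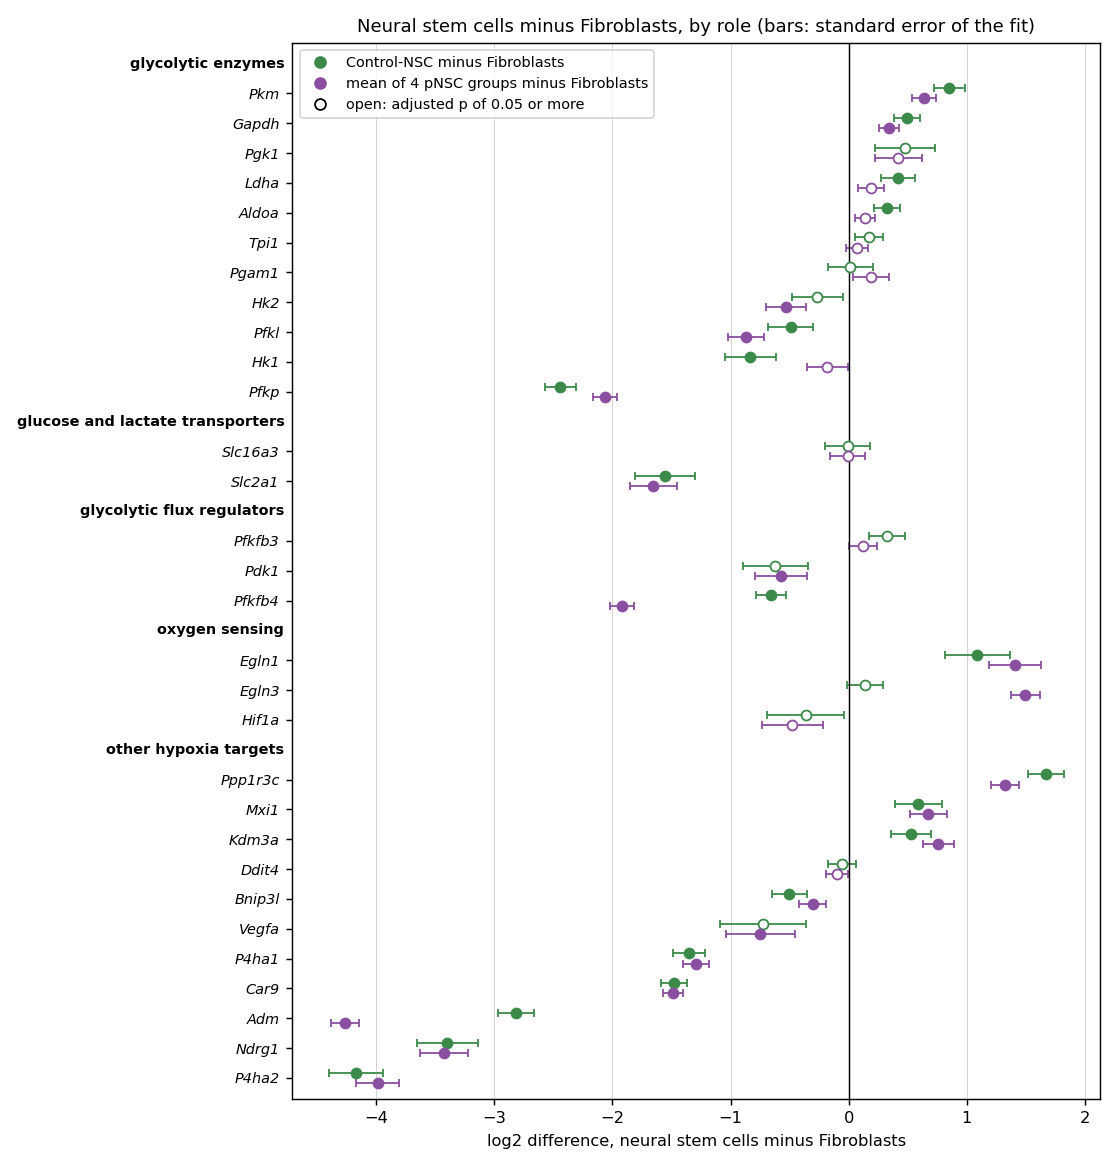
Log2 difference from Fibroblasts (horizontal axis) of the 30 tested members grouped by role, for Control-NSC in green and the mean of the 4 pNSC groups in purple, with bars for the standard error and filled points for adjusted p under 0.05. Ppp1r3c lies to the right of 0 at 1.67 and 1.32, and P4ha2, Ndrg1 and Adm lie at -2.82 or below in both.

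Of the 30 members, 8 had more than 1 kept probe. Over the 88 pairs of such a member and a comparison, the probes were called in opposite directions in 0, all called one way in 15, called in part in 19 and not called in 54. Pfkl made up 8 of the 19 partial cases, its second probe being dim and of opposite sign in 3. The 2 Ndrg1 probes were both called in the limb late-early comparison, but only 1 of them in the difference of the changes between the lines.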

How the data were processed

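RNA of 12 samples in 6 groups of 2 was hybridized to Illumina MouseRef-8 v2 arrays. The deposited raw table holds linear signal intensities that the authors exported with BeadStudio 3.2 without normalization. The deposited detection p-values compare each probe with negative controls. The deposited normalized log2 values, made by the authors with lumi after RMA-type background correction, served as an alternative (r = 0.985 to 0.986 with the values used).

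Intensities were corrected and quantile-normalized with neqc of limma 3.58.1 in R 4.3.3 (offset 16). Probes with detection p under 0.05 on at least 2 arrays were kept (14869 of 25697), and each gene took its brightest kept probe. Symbols were updated to RefSeq (GRCm38.p6). A limma model over 12 arrays (6 residual and 5.82 prior degrees of freedom) with Benjamini-Hochberg adjustment over 10144 genes was tested on simulated data. Arrays limit the precision by their number. A gene below background on both arrays of a group is given as at least N-fold, against the higher of its own signal and the lowest detected signal. Named are up to 8 called members with the largest differences per comparison, Ndrg1 and Ppp1r3c throughout, and up to 3 called genes of the further lists per late-early comparison. Members and lists were chosen with earlier results of these data known. The alternatives are given in the closing section.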

Additional observations from a re-analysis of the deposited data

Results flagged for a closer look

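The late-early change differed between the lung and the limb line by a test of the difference for 5 members. The difference, lung minus limb on the log2 scale, was -2.26 for Ndrg1 (2.53 in the limb and 0.27 in the lung line), -1.56 for Hk2 (2.09 and 0.53), -1.29 for Egln3 (1.498 and 0.21), -1.09 for Ppp1r3c (2.21 and 1.12) and -0.86 for Ddit4 (1.43 and 0.57). Their limma adjusted p-values were 0.0035, 0.01, 0.0048, 0.012 and 0.011. Ndrg1 was at background in both early groups, so its values are fitted and not exact (at least 5.09-fold higher late in the limb line). Of its 2 kept probes, 1 was called in the test of the difference. With the deposited normalized values Ndrg1 (adjusted p = 0.06) and Ppp1r3c (adjusted p = 0.053) were not called.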

How the results depend on the processing

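No difference reversed its direction under any alternative for a called member. Outside the arrays left out, 3131 of 3278 values kept their side of the threshold, 79 lost and 68 gained a call. The limb late-early count of 15 fell to 8 when only the arrays compared were fitted. The lung late-early count of 5 was 3 with the deposited values and 3 without a detection filter. The early lung-limb count of 5 was 2 with the deposited values and 2 with only the arrays compared. The late lung-limb count of 9 was 14 with an intensity trend and robust prior and 5 with only the arrays compared. The alpNSCs-late count of 3 against Control-NSC was 5 without background correction. With 1 array left out in turn, counts ran from 10 to 16 (limb late-early), 2 to 5 (lung late-early), 3 to 11 (difference of the changes), 2 to 5 (early lung-limb) and 3 to 15 (late lung-limb). Against Control-NSC they ran from 6 to 11 (elpNSCs-early), 4 to 9 (alpNSCs-early), 8 to 18 (elpNSCs-late) and 3 to 5 (alpNSCs-late). Against Fibroblasts they ran from 14 to 22 (Control-NSC) and 14 to 21 (pNSC mean). Replicate numbers are not taken to pair the samples. The r of deviations ran from -0.15 to 0.24 over 15 group pairs, with 10 over 0.1 and 1 under -0.1. It was thus low, but more often positive than negative beyond 0.1. With the replicate block 10 member calls were gained and 0 lost, Hk1 against Control-NSC in alpNSCs-early, alpNSCs-late and elpNSCs-late among them, and the counts were 15 in the limb line, 5 in the lung line and 5 in the difference. A lone array left in a group is assumed to vary like the others. Dim members such as Slc16a3, Pfkfb3 and Car9 are limited by signal near background.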
